A study of Mus musculus with 24 samples.

Results

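The genes described here are 40 heat shock chaperones and co-chaperones of the cytosol and the mitochondria, of the 43430 genes in a table of RNA-seq counts from sorted mouse alveolar macrophages. The list was drawn up by family name, with earlier results of these data known. The list holds 8 inducible HSP70, HSP110 and HSP40 genes, 3 constitutive HSP70 genes and relatives, 2 HSP90 genes, 2 small heat shock proteins, 4 mitochondrial chaperones, 8 subunits of the chaperonin TRiC, 5 co-chaperones of HSP70, 6 of HSP90 and 2 heat shock factors. All 40 were found in the table, and 39 had enough counts to be tested. Hspb1 was the exception.

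The 24 libraries formed 6 groups of 4, all from C57BL/6J mice with no engineered allele named in the labels. Young mice were 8 to 12 weeks old in the sample labels and old mice more than 18 months. Naive mice had received no asbestos, and the others were studied 28 days after asbestos, whose dose and fibre type the sources used here do not give. Macrophages were sorted by Siglec F, a sialic acid-binding lectin that is abundant on resident alveolar macrophages. Siglec F-high cells were collected from young naive, old naive, young asbestos and old asbestos lungs, and Siglec F-low cells from young and old asbestos lungs. The series text speaks of tissue-resident and monocyte-derived cells, while the sample labels name only the Siglec F level, and these names are kept here. The series is about protein homeostasis in aged mice with lung fibrosis. ISRIB, a compound in its title, was not named in the label of any of these libraries. Nothing says whether a library came from 1 mouse or from a pool, so the p-values measure the spread between these libraries, which may be partly technical.

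Chaperones bind unfolded proteins and help them to fold, and many of them are made in larger amounts when proteins are damaged by heat, oxidants or other stress. HSP70 proteins bind short hydrophobic stretches with the help of HSP40 proteins, which deliver the client, and of HSP110 proteins, which exchange the nucleotide. HSP90 takes over partly folded clients such as kinases and steroid hormone receptors, and TRiC folds actin and tubulin in a closed ring. The heat shock factor HSF1 drives the inducible genes by binding inverted GAA repeats in their promoters. Alveolar macrophages clear inhaled particles, dead cells and surfactant.

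Counts were scaled to library size with TMM factors and are given as CPM, the field's usual rate of counts relative to the scaled library. Values for a group are given in the order of replicates 1 to 4, so that in both asbestos Siglec F-high groups the third value is a library of poor quality, described next. Differences are log2 fold changes ± SE from the quasi-likelihood test of edgeR, with p-values adjusted over all genes tested, and a gene is said to be called at an adjusted p under 0.05. Totals were 13423080 to 18124526 counts in 22 libraries, which had counts on 17069 to 18820 genes and had correlations of 0.980 to 0.996 with their group. The other libraries stood apart, and both carry the number 3, from Siglec F-high cells after asbestos. The young one had 11889517 counts on 12528 genes and a correlation of 0.886. The old one had 3894699 counts, of which 55.4% came from rRNA-related genes, and a correlation of 0.928. They are called the poor libraries below, and the comparisons are given with all 24 libraries and with the remaining 22. A value for 1 number of libraries only is marked as such. The pan-macrophage markers Cd68, Lyz2, Adgre1 and Ptprc summed to 18385 to 33621 CPM in the 22. Siglecf was lower in the Siglec F-low sort in young (log2 fold change -0.79 ± 0.10, adjusted p = 1.77e-05) and old lungs (-1.43 ± 0.10, adjusted p = 3.99e-09), with 22 libraries.

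Levels of the 40 genes spanned a wide range. Per kilobase of exon, the median over 22 libraries was highest for Hsp90ab1, the constitutive cytosolic HSP90, at 464 CPM per kb, and next for Hspa8, the constitutive HSP70, at 208. Bag1, a nucleotide exchange factor of HSP70, had 83.2 CPM per kb, and the TRiC subunits Cct2 and Cct5 had 79.9 and 58.7. The stress-inducible Hspa1b and Hspa1a were near the bottom, at 1.80 and 1.56 CPM per kb. Only Hsf2, Dnajb4, Cryab and Hspb1 had less, and Hspb1 was last at 0.240. Within a gene, the highest of the 22 libraries was 39.4 times the lowest for Hspa1b, 13.4 times for Hspa1a, 5.23 times for Fkbp5 and 3.80 times for Hsph1. The ratios of 12.9 for Cryab and 9.81 for Hspb1 rest on very few counts. At the other end stood Hspa4, an HSP110-type exchange factor, at 1.17 times. Low counts limit the inducible HSP70 genes: in the 22 libraries Hspa1a had 33 to 535 counts (median 81) and Hspa1b 18 to 951 (median 83), and each had 1 count in the old poor library. Hspb1 had 0 to 11 counts and Cryab 0 to 34 in the 24 libraries, which is too few to show a difference of ordinary size.

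Hspa1a (chr17:34969190-34972156, minus strand, GRCm38) and Hspa1b (chr17:34956436-34959238, minus strand) are neighbouring copies that encode nearly the same protein. Whether a read that fits both copies was counted, and for which, is unknown here, so their separate values are uncertain and their sum is given as well. The sequences upstream of their start sites, from RefSeq on GRCm38.p6, are printed because these genes moved most, with those of Hsph1 and Fkbp4 as other genes that moved and of Hspe1 as one that passed no test of age or asbestos. Capitals mark a pair of inverted GAA units, GAANNTTC or TTCNNGAA, found by letters on either strand. The first 2 windows are chr17:34972157-34972406 and chr17:34959239-34959488, both minus strand and 250 bases long, up to the RefSeq start. The Fkbp4 stretch is chr6:128438678-128438906 on the minus strand. Around the match only, 30 bases are shown for Hsph1 (chr5:149636351-149636380, minus strand) and for Hspe1 (chr1:55088053-55088082, plus strand), since most or all of those bases lie in annotated untranslated sequence.
Hspa1a: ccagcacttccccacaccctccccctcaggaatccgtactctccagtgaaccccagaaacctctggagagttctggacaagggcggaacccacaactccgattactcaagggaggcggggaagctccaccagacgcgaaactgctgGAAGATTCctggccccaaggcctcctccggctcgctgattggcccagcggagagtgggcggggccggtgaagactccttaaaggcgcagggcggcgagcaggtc
Hspa1b: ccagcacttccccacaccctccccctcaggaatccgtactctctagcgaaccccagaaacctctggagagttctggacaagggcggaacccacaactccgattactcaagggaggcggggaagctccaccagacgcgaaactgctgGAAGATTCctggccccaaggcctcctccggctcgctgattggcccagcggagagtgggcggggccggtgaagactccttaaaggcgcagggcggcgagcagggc
Fkbp4: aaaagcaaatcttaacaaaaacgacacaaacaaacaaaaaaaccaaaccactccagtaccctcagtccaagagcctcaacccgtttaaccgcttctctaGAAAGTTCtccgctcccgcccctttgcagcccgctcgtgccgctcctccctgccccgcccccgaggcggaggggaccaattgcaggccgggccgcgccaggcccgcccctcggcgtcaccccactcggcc
Hsph1: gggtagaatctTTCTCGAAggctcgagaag
Hspe1: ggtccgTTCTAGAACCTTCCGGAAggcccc
The Hspa1a and Hspa1b windows were the same at 247 of 250 bases, and each held 1 match. The Hspe1 stretch lies upstream of Hspe1, which encodes the mitochondrial HSP10, and inside the annotated start of the HSP60 gene, Hspd1, which is read in the opposite direction and overlaps Hspe1. Its run of overlapping matches contains a unit of 3 inverted repeats (GAANNTTC followed by NNGAA, or TTCNNGAA followed by NNTTC). In the 250 bases before the RefSeq start, a pair was found for 14.5% of 27025 genes with a window and for 14 of the 32 chaperone genes with one. Counted by window it was 12.8% of 32851. Units of 3 were found for 0.514% of genes, among them Hspd1, Hspe1 and Dnajb6. Hspd1 and Hspe1 share the same site, read from opposite strands. These genes, and the copies Hspa1a and Hspa1b, are thus not separate cases in these counts. With 22 libraries, 6 of 13 tested genes with a pair and 4 of 18 without were called lower in old naive macrophages. Over all genes it was 2.91%. Of the 3 with a unit of 3 repeats, 0 were called. Hsp90aa1 and Hsp90ab1, also called lower there, were among the 8 chaperone genes without a window. The median log2 fold changes were alike, at -0.12 with a pair and -0.11 without. After asbestos, 2 of 13 with a pair and 3 of 18 without were called lower in old Siglec F-high cells, against 2.47% of all genes. In Siglec F-low cells it was 2 of 13 and 2 of 18, against 3.41% of all genes. The called share of all genes with a pair was not counted. A unit of 3 contains a pair, and a match or its absence refers only to these letters in these windows.

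In naive lungs, several heat-inducible chaperone transcripts were lower in old than in young Siglec F-high macrophages. With 24 libraries 3 of the 39 tested genes were called, all lower (Hspa1b, Hspa1a and Stip1), where 0.349% of all 13467 genes were called lower. Without the poor libraries, neither of which is in these groups, 12 of 39 were called lower and none higher, where 2.91% of 13629 genes were called lower. The added calls were Hsph1, Dnaja1, Dnajb1, Hspa4l, Fkbp4, Dnajb4, Ahsa1, Hsp90ab1 and Hsp90aa1. Their log2 fold changes hardly moved between the fits, while the SE of Hsp90aa1 went from 0.43 to 0.11. Of the 8 inducible HSP70, HSP110 and HSP40 genes, 2 were called with 24 and 6 with 22 libraries, with a median log2 fold change of -0.65 with 24. Of the 39, 30 had a negative log2 fold change, with a median of -0.12 against -0.00 over all genes (22 libraries). In RNA of a whole sorted population, fewer cells of a type and less RNA per cell cannot be told apart.

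Hspa1b, an inducible cytosolic HSP70, was 11.8, 20.6, 46.2 and 40.1 CPM in young and 8.10, 5.05, 2.76 and 8.11 in old naive libraries. All 4 old libraries were below all 4 young ones, and the log2 fold change was -2.30 ± 0.41, adjusted p = 0.00197 with 24 and -2.31 ± 0.36, adjusted p = 0.000162 with 22 libraries. Its neighbour Hspa1a had 6.43, 14.8, 26.0 and 25.3 CPM in young and 6.70, 5.05, 3.43 and 6.69 in old libraries. Here young replicate 1 lay among the old ones, and replicates 3 and 4 were the highest, as they were for Hspa1b. The log2 fold change was -1.73 ± 0.36, adjusted p = 0.00879 and -1.73 ± 0.33, adjusted p = 0.00149. With the counts of the copies summed, it was -2.06 ± 0.36 (SE, adjusted p = 0.00153, 24 libraries).

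Hsph1, the stress-inducible HSP110, had 57.1, 80.9, 137 and 133 CPM in young and 40.9, 49.2, 45.7 and 59.9 in old libraries, with overlap at young replicate 1. Its log2 fold change was -1.06 ± 0.30, adjusted p = 0.0718 with 24 and -1.06 ± 0.19, adjusted p = 0.000704 with 22 libraries. Dnajb1, the HSP40 that partners the inducible HSP70, had 51.4, 60.0, 78.6 and 67.6 CPM in young and 46.0, 37.5, 40.7 and 42.6 in old libraries, which did not overlap. The difference was -0.63 ± 0.21, adjusted p = 0.195 and -0.62 ± 0.12, adjusted p = 0.00107. For Dnaja1, another cytosolic HSP40, the values were 57.0, 82.3, 104 and 100.1 and 58.9, 58.9, 44.8 and 51.7 CPM, and again young replicate 1 lay within the old range. It gave -0.68 ± 0.20, adjusted p = 0.0891 and -0.68 ± 0.14, adjusted p = 0.00245. Of the remaining HSP40 genes, Dnajb4 was called lower only with 22 libraries (-0.56 ± 0.17, adjusted p = 0.0445), and Dnajb6 and Dnaja2 were not called. Dnaja2 had all 4 old libraries above all 4 young ones, at 131, 117, 123 and 125 CPM in young and 144, 139, 136 and 132 in old (0.15 ± 0.10, adjusted p = 0.9 and 0.16 ± 0.06, adjusted p = 0.118).

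Stip1, the adaptor that hands clients from HSP70 to HSP90, had 99.6, 123, 141 and 133 CPM in young and 83.7, 85.5, 82.7 and 93.4 in old libraries, with no overlap. Its log2 fold change was -0.53 ± 0.12, adjusted p = 0.0135 with 24 and -0.52 ± 0.08, adjusted p = 0.000153 with 22 libraries. Fkbp4, an HSP90-bound immunophilin of steroid receptor complexes, had 137, 166, 162 and 160.1 CPM in young and 112, 124, 102 and 109.5 in old libraries. The groups did not overlap, and the test gave -0.48 ± 0.18, adjusted p = 0.295 and -0.48 ± 0.07, adjusted p = 4.33e-05. Hspa4l, a relative of HSP110, had 41.1, 44.0, 62.1 and 66.6 and 37.1, 40.6, 33.9 and 44.5 CPM, which overlapped (-0.45 ± 0.16, adjusted p = 0.254 and -0.45 ± 0.13, adjusted p = 0.0269). The HSP90 genes had negative values of unequal size, -0.64 ± 0.43, adjusted p = 0.917 and -0.64 ± 0.11, adjusted p = 0.000309 for the inducible Hsp90aa1 and -0.26 ± 0.17, adjusted p = 0.915 and -0.25 ± 0.07, adjusted p = 0.0234 for Hsp90ab1. Old libraries were all below young ones for Hsp90aa1 and overlapped with them for Hsp90ab1. Ahsa1, which activates the HSP90 ATPase, gave -0.24 ± 0.13, adjusted p = 0.731 and -0.24 ± 0.07, adjusted p = 0.041. Of the calls made only with 22 libraries, those of Hsph1, Dnajb1, Dnaja1, Hsp90aa1 and Fkbp4 held whichever of the 22 was left out, while Hspa4l and Hsp90ab1 held in 18 of 22 such fits, Ahsa1 in 17 and Dnajb4 in 7.

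**Figure D1:**
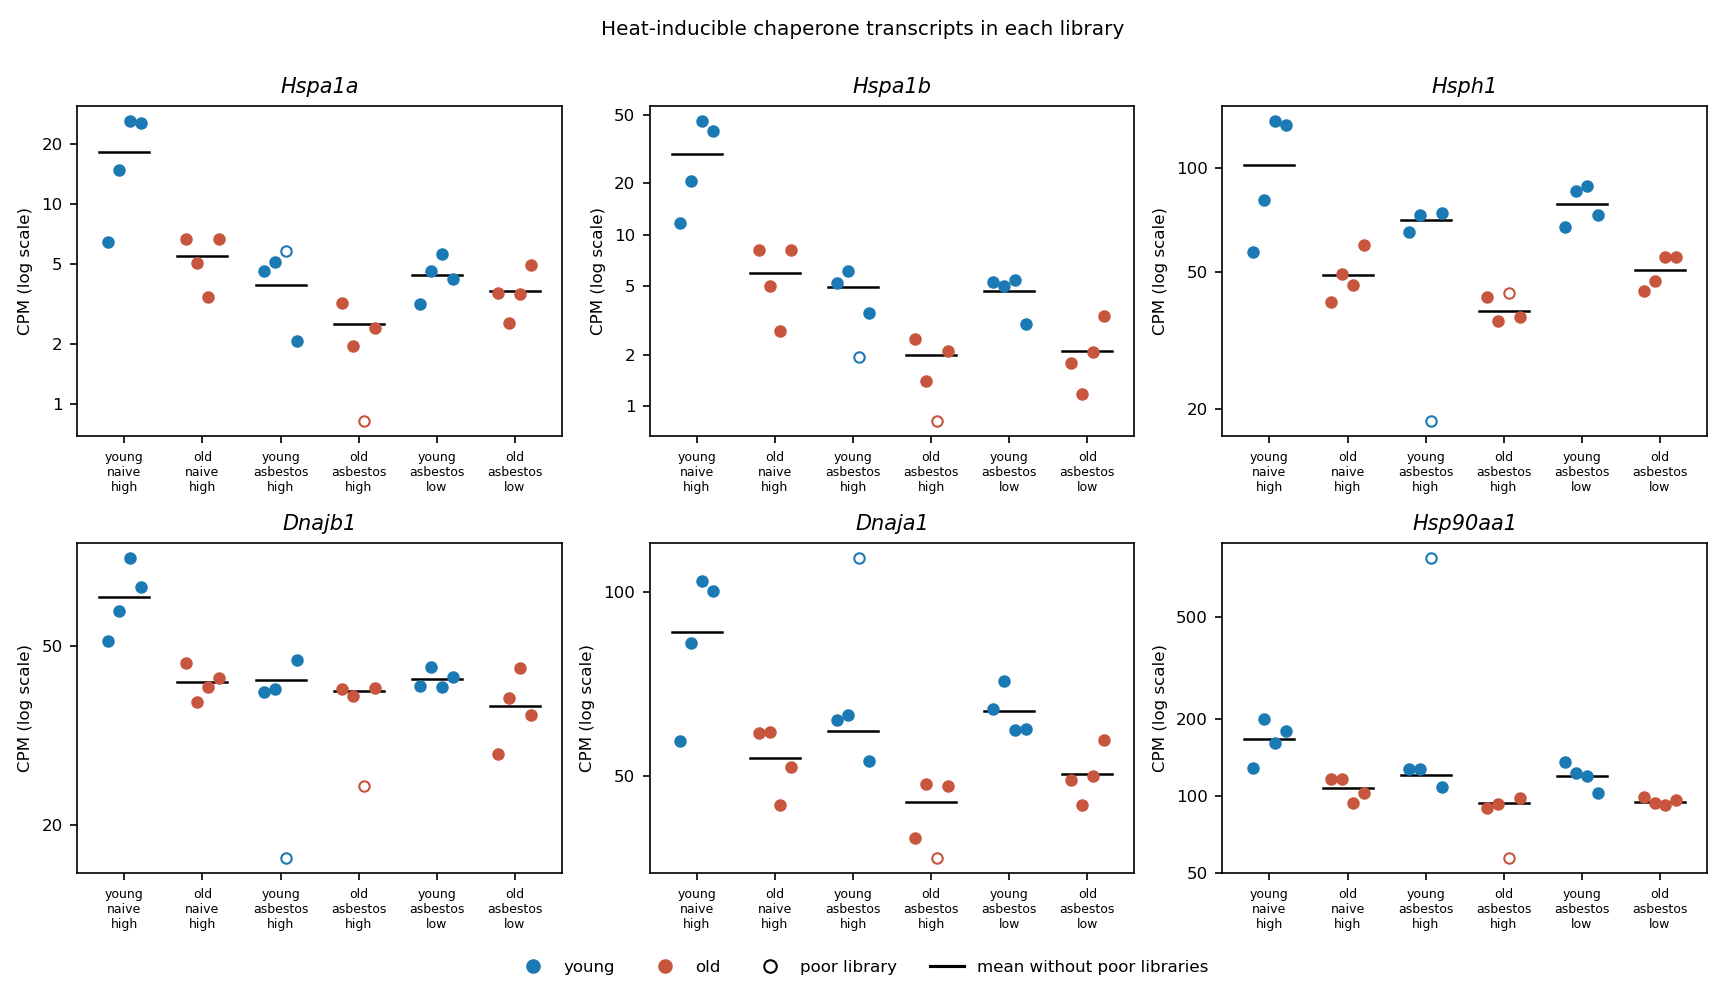
CPM on a log scale of 6 chaperone genes in each library, by group; "high" and "low" are the Siglec F sorts, filled points are the 22 libraries, open points the 2 poor ones, and bars are group means without the poor libraries. Young naive replicates 3 and 4 are the highest of the filled points for Hspa1a, Hspa1b, Hsph1, Dnajb1 and Dnaja1, and the open points of Hsp90aa1 lie at 852 and 57.2 CPM.

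Young naive replicates 3 and 4 had the highest levels of most inducible genes, and leaving out either one ended the call of Hspa1a with 24 libraries (-1.50, adjusted p = 0.055, without replicate 3 and -1.52, adjusted p = 0.0519, without replicate 4). Stip1 lost its call without young naive replicate 3 or 4 or old naive replicate 1, 2 or 3, at adjusted p-values of 0.0518 to 0.105, and Hspa1b was called whichever of the 24 was left out. With both left out, a setting added after the values were seen, 4 members were called lower among the remaining of the 22 libraries: Hspa1b (-1.42, adjusted p = 0.0242), Hsp90aa1 (-0.61, adjusted p = 0.00905), Fkbp4 (-0.43, adjusted p = 0.00329) and Stip1 (-0.36, adjusted p = 0.0157). Hspa1a, Hsph1, Dnajb1 and Dnaja1 then had adjusted p-values of 0.146, 0.0745, 0.0663 and 0.163, at -0.95, -0.49, -0.41 and -0.37. The same 2 libraries were also high for the immediate early gene Jun, at 537, 597, 789 and 718 CPM in young and 530.2, 588, 573 and 502 in old libraries. For Egr1, another gene induced by cell handling, the values were 175, 199, 302 and 308 in young and 163, 209.6, 218 and 517 in old libraries. The highest Egr1 level was in old replicate 4, where Hspa1b was 8.11 CPM. Old replicate 1, with the lowest Egr1 level of the old libraries, had 8.10 CPM of Hspa1b. Summed over the list of 17 handling-induced genes, levels were 10786 to 11508 CPM in young and 9379 to 11417 in old libraries, and 0 of the 17 were called with either number of libraries. Their part in the result was not tested.

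Other lists also moved in this comparison. Of 20 cell cycle genes, 4 were called lower in old libraries with 24 and 12 with 22. The 6 B cell markers summed to 58.1 to 93.9 CPM in young and 139 to 285 in old libraries, where Ighm was the only gene called (2.25 ± 0.38, adjusted p = 0.000871 with 24 libraries). The 6 epithelial markers summed to 173 to 273 and 281 to 385 CPM, and 0 of the 5 tested were called. Of the 8 monocyte-derived macrophage markers, 2 were called higher in old libraries with 24 and 3 with 22, and their sums were 412 to 561 and 629 to 1092 CPM. The part of these cells in the chaperone result was not tested.

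Asbestos was compared with naive within each age in Siglec F-high cells. In young mice the inducible HSP70 genes were lower 28 days after asbestos. With 24 libraries 3 members were called, all lower (Hspa1b, Hspa1a and Dnajb1), where 0.475% of genes were called lower. With 22 it was 8, all lower, where 1.58% were, and the added members were Hsp90aa1, Hsp90ab1, Stip1, Chordc1 and Dnaja1. This comparison uses the same young naive libraries as the comparison of ages in naive lungs, so the 2 are not independent.

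Hspa1b was 5.20, 6.11, 1.93 and 3.49 CPM in young asbestos libraries, all below the lowest young naive value of 11.8. Its log2 fold change was -2.80 ± 0.42, adjusted p = 0.000629 with 24 and -2.58 ± 0.41, adjusted p = 0.000442 with 22 libraries. Hspa1a was 4.61, 5.12, 5.80 and 2.06 CPM, also below all 4 naive libraries, and gave -2.05 ± 0.37, adjusted p = 0.00353 and -2.19 ± 0.38, adjusted p = 0.00112. The summed copies gave -2.47 ± 0.37 (SE, adjusted p = 0.00054, 24 libraries). Dnajb1 was 39.6, 40.1, 16.9 and 46.7 CPM, where the third value is the poor library. The 4 values were all below the naive ones, at -0.84 ± 0.21, adjusted p = 0.0434 and -0.62 ± 0.13, adjusted p = 0.00495. With 24 libraries Dnajb1 was called in 7 of the 24 fits that left out 1 library, with its largest adjusted p of 0.183 without young naive replicate 3. Hspa1a and Hspa1b were called in all of them. Dnaja1 had 61.7, 62.9, 114 and 53.0 CPM and overlapped with naive in either case (-0.24 ± 0.20, adjusted p = 0.506 and -0.54 ± 0.15, adjusted p = 0.0364).

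For Hsp90aa1 the poor library set the direction. In all, 13 of the 39 members changed sign in this comparison between 24 and 22 libraries, among them Hspe1 (from 0.66 to -0.05), Cct5 (0.57 to -0.08) and Cct8 (0.46 to -0.05), and none of the 13 other than Hsp90aa1 was called in either. Hsp90aa1 was 128, 199.9, 161 and 179.7 CPM in young naive and 127, 127, 852 and 108 in young asbestos libraries, and the value of 852 is the poor library. Its log2 fold change was 0.86 ± 0.43, adjusted p = 0.274 with that library and -0.47 ± 0.11, adjusted p = 0.0163 without. Hsp90ab1 was 1513, 1709, 1801 and 1843 CPM in naive and 1388, 1424, 2602 and 1365 in asbestos libraries. The poor library was the highest again, and the test gave -0.02 ± 0.17, adjusted p = 0.962 and -0.31 ± 0.07, adjusted p = 0.0172. Without it, all asbestos libraries of both genes lay below the naive ones. Among the co-chaperones, Stip1 was 101, 104, 115 and 96.2 CPM after asbestos (-0.25 ± 0.12, adjusted p = 0.228 and -0.31 ± 0.09, adjusted p = 0.0384). Chordc1, a zinc-binding HSP90 partner, was 42.5, 63.4, 77.2 and 81.9 CPM in naive and 47.4, 45.0, 75.7 and 43.2 in asbestos libraries (-0.33 ± 0.18, adjusted p = 0.32 and -0.55 ± 0.14, adjusted p = 0.0216). Both overlapped with the naive libraries. In fits that left out 1 of the 22, Hsp90aa1 and Hsp90ab1 were called in 18, Dnaja1 and Chordc1 in 17 and Stip1 in 16. Without young naive replicates 3 and 4, of these 8 members only Hspa1b was called (-1.70, adjusted p = 0.0229, remaining of the 22 libraries), and Hspa1a had -1.42 with an adjusted p of 0.0514.

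In the old, with 24 libraries no member was called after asbestos against naive by edgeR, where 0.0668% of genes were called lower. At an unadjusted p under 0.05 there were 5 of the 39 members, where 1151 of 13467 genes had such a p. DESeq2 called 1 member, Hspa1b, at an adjusted p of 0.0266. With 22 libraries 2 were called lower, Chordc1 and Fkbp4, where 0.969% of genes were. Chordc1 was 47.1, 58.1, 46.0 and 49.0 CPM in old naive and 36.5, 35.7, 22.9 and 32.1 in old asbestos libraries (-0.62 ± 0.19, adjusted p = 0.168 and -0.52 ± 0.14, adjusted p = 0.0394). Fkbp4 was 112, 124, 102 and 109.5 and 93.8, 94.4, 41.7 and 86.6 CPM (-0.47 ± 0.18, adjusted p = 0.376 and -0.29 ± 0.07, adjusted p = 0.0247). For both genes all asbestos libraries were below all naive ones. Fkbp4 was called in 19 and Chordc1 in 14 of the 22 fits that left out 1 library. Hspa1b was 8.10, 5.05, 2.76 and 8.11 CPM in old naive and 2.47, 1.41, 0.817 and 2.11 in old asbestos libraries, again without overlap, at -1.64 ± 0.47, adjusted p = 0.137 and -1.58 ± 0.47, adjusted p = 0.0597. The test of whether the asbestos response differed with age called 0 members, where 0 of all genes were called with 24 libraries and 0.0147% with 22. At an unadjusted p under 0.05 it gave 4 of the 39 members with 24 and 3 with 22, where it gave 1050 of 13467 and 703 of 13629 genes. For Hspa1b the old minus young difference of responses was 1.16 ± 0.62, adjusted p = 0.587 with 24 libraries, and for Dnajb1 it was 0.67 ± 0.30, adjusted p = 0.587 and 0.55 ± 0.18, adjusted p = 0.693. The 17 handling-induced genes moved with asbestos too: 4 were called lower in the young with 24 libraries and 8 with 22, and 2 and 6 in the old, where 1 was called higher with 22. Their sums were 7914 to 9228 CPM in young and 8761 to 9648 in old asbestos Siglec F-high libraries, and their part was not tested. Of the 20 cell cycle genes 3 were called higher after asbestos in the young with 24 libraries and 7 with 22. Monocyte-derived macrophage markers went from sums of 412 to 561 CPM in naive to 772 to 1100 after asbestos in the young and from 629 to 1092 to 1362 to 1513 in the old (22 libraries), with 3 of the 8 called higher in the young and 0 in the old with 24. The B cell markers summed to 22.5 to 44.0 CPM after asbestos in the young, with 3 of 6 called lower with 24 libraries. The resident alveolar macrophage markers summed to 13446 to 18587 CPM in young naive and 21799 to 25617 in young asbestos libraries, and to 14850 to 17296 and 33647 to 38399 in old ones (22 libraries), where 1 of the 8 was called higher with 24 at each age, Fabp4 in the young and Chil3 in the old. The part of these lists was not tested either.

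**Figure D2:**
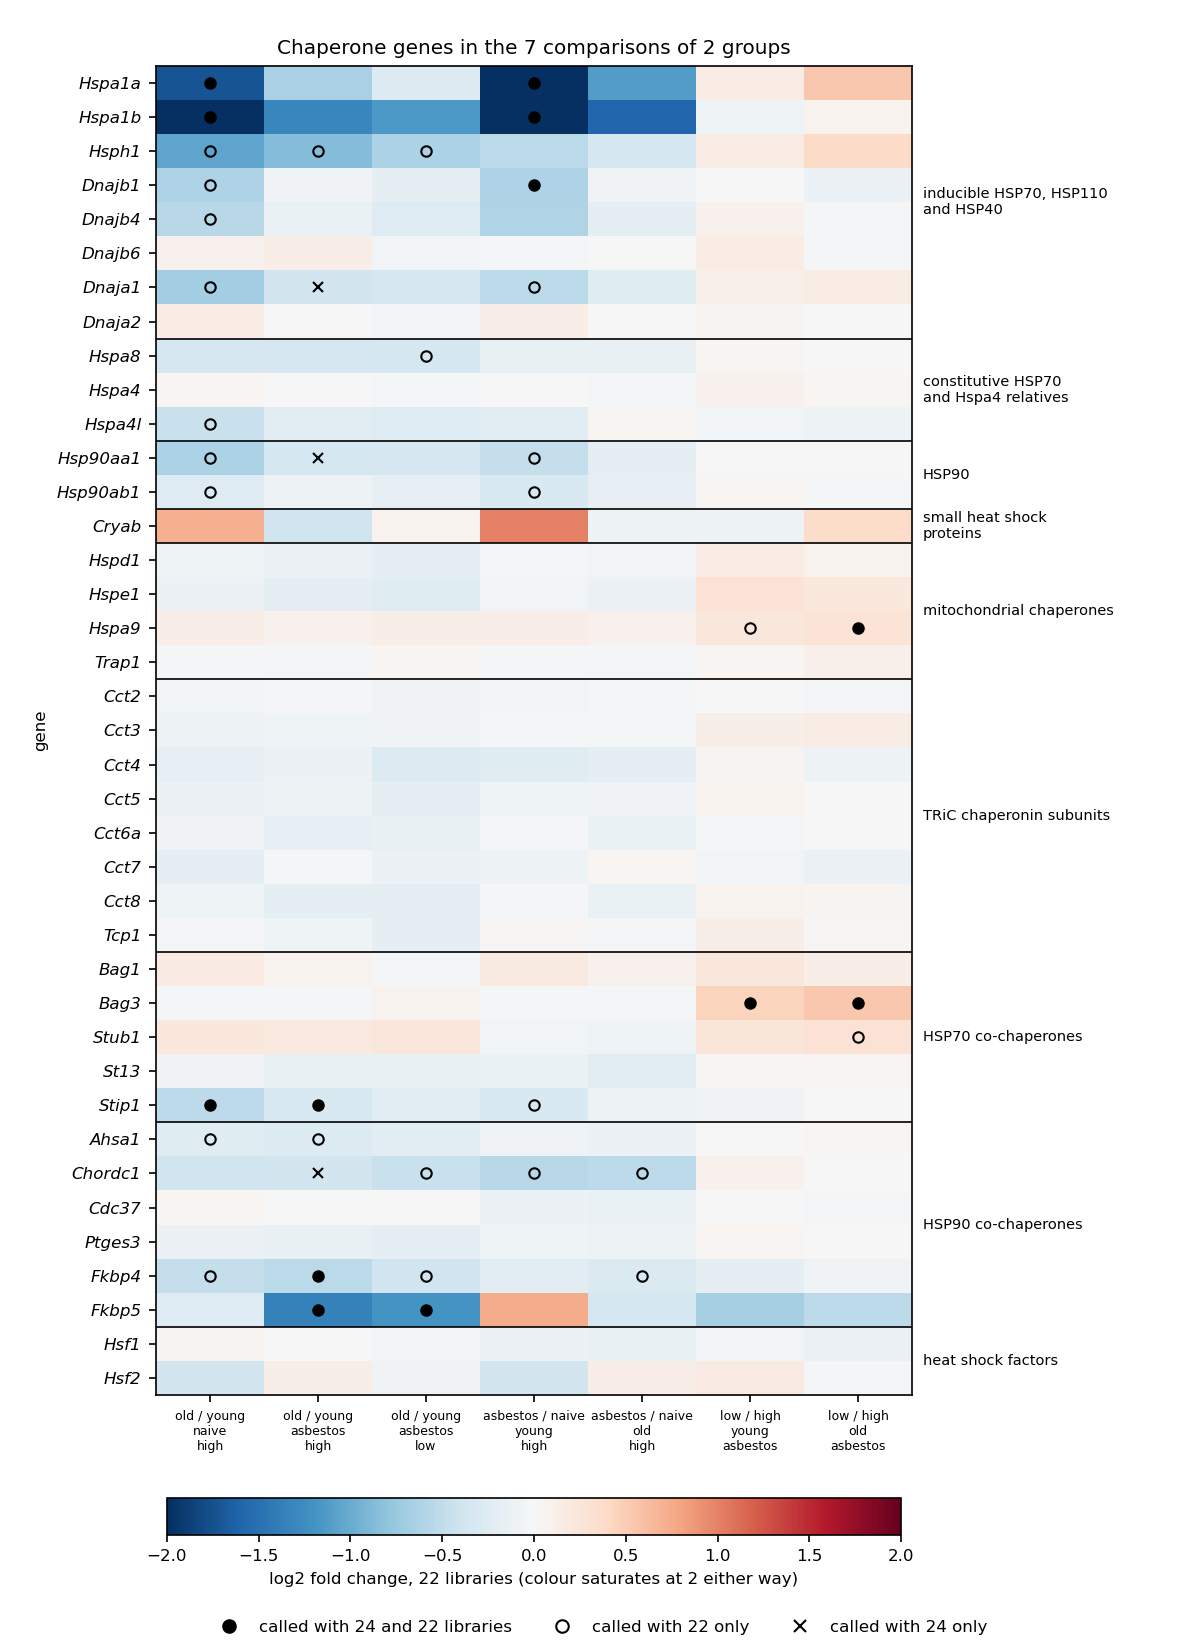
Log2 fold changes of the 39 tested genes (rows, by role) in the 7 comparisons of 2 groups (columns), in the fit of 22 libraries, as colours that saturate at 2 (red higher, blue lower); filled circles mark genes called with 24 and 22 libraries, open circles with 22 only and crosses with 24 only. Calls in the age and asbestos columns are all lower, calls in the sort columns are all higher, and the 8 TRiC subunits have no mark.

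After asbestos, Siglec F-high macrophages of old mice had less of both HSP90 immunophilins than those of young mice. With 24 libraries 6 members were called, all lower in old (Fkbp4, Fkbp5, Hsp90aa1, Stip1, Chordc1 and Dnaja1), where 1.87% of genes were called lower. With 22 it was 5, all lower (Fkbp4, Fkbp5, Hsph1, Ahsa1 and Stip1), where 2.47% were. Fkbp4, Fkbp5 and Stip1 were called in both. The median log2 fold change of the 39 was -0.35 against 0.04 over all genes with 24 libraries, and -0.12 against 0.01 with 22.

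Fkbp4 was 131, 138, 223 and 133 CPM in young and 93.8, 94.4, 41.7 and 86.6 in old asbestos Siglec F-high libraries. The poor libraries were the extremes on either side, yet the groups did not overlap with or without them. The log2 fold change was -0.95 ± 0.18, adjusted p = 0.00377 with 24 and -0.54 ± 0.08, adjusted p = 0.000104 with 22 libraries. Fkbp5, an immunophilin of the same complexes and a glucocorticoid receptor target, was 136, 347, 141 and 281 CPM in young and 108, 86.9, 95.6 and 104 in old libraries. All old libraries were below all young ones, and young replicates 2 and 4 were far above the other young values. The test gave -1.20 ± 0.28, adjusted p = 0.0155 and -1.34 ± 0.29, adjusted p = 0.00469. Without young replicate 2 in the fit of 22 the adjusted p was 0.0501. Stip1 was 101, 104, 115 and 96.2 CPM in young and 82.6, 79.4, 55.5 and 79.9 in old libraries, with no overlap (-0.47 ± 0.12, adjusted p = 0.0244 and -0.31 ± 0.09, adjusted p = 0.0476). With 24 libraries it lost its call without old replicate 3 (-0.36, adjusted p = 0.0585) or 4 (-0.50, adjusted p = 0.0515), and with 22 it was called in 7 of 22 fits that left out 1 library.

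The other calls depended on the poor libraries. Hsp90aa1 was 127, 127, 852 and 108 CPM in young and 90.0, 93.1, 57.2 and 98.5 in old libraries, and its log2 fold change went from -1.82 ± 0.45, adjusted p = 0.0214 to -0.35 ± 0.12, adjusted p = 0.0838. Chordc1, at 47.4, 45.0, 75.7 and 43.2 and 36.5, 35.7, 22.9 and 32.1 CPM, went from -0.69 ± 0.19, adjusted p = 0.0355 to -0.37 ± 0.15, adjusted p = 0.162. Dnaja1, at 61.7, 62.9, 114 and 53.0 and 39.7, 48.6, 36.8 and 48.1 CPM, went from -0.73 ± 0.20, adjusted p = 0.0402 to -0.37 ± 0.16, adjusted p = 0.182. Young and old libraries of these 3 genes did not overlap with or without the poor libraries, and the differences were smaller without. With 24 libraries Hsp90aa1 also lost its call without old asbestos replicate 1, 3 or 4, and Chordc1 without any of the 4 old ones, at adjusted p-values of 0.0518 to 0.0661 and 0.0553 to 0.0934. Dnaja1 was called in 9 of the 24 fits that left out 1 library. For Hsph1 the difference was larger without the poor libraries, since the young one was low. It was 65.2, 73.2, 18.4 and 73.8 CPM in young and 42.2, 36.0, 43.3 and 37.0 in old libraries (-0.55 ± 0.30, adjusted p = 0.246 and -0.87 ± 0.22, adjusted p = 0.017). Ahsa1 was 82.8, 83.7, 57.7 and 81.0 and 66.3, 71.9, 41.7 and 64.3 CPM (-0.30 ± 0.13, adjusted p = 0.163 and -0.28 ± 0.08, adjusted p = 0.0408), and both genes were separated by age only without the poor libraries. Hsph1 was called in 18 and Ahsa1 in 16 of the 22 fits that left out 1 library.

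**Figure D3:**
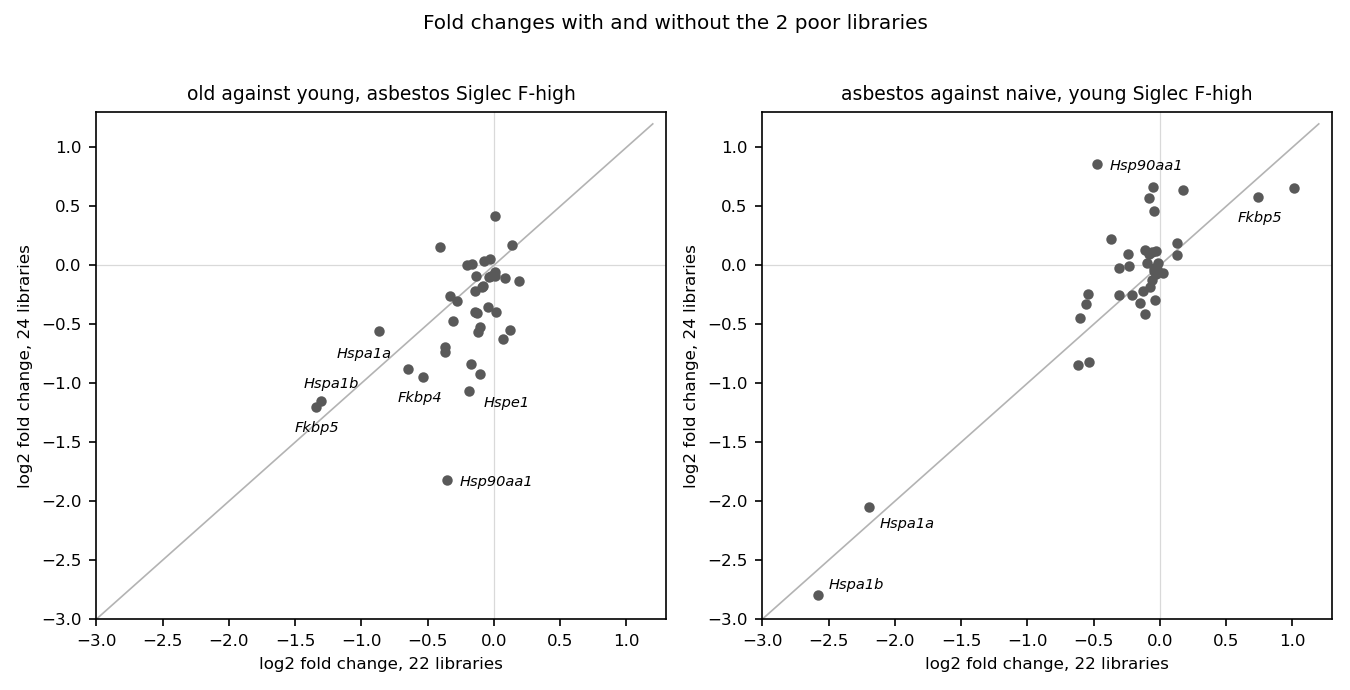
Log2 fold changes of the 39 tested genes with 22 libraries (x axis) and with all 24 (y axis) in 2 comparisons that contain a poor library; each point is 1 gene and the line marks equal values. Hsp90aa1 lies at -0.35 and -1.82 in the comparison of ages and at -0.47 and 0.86 in that of asbestos, while Hspa1b and Fkbp5 lie close to the line.

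In the Siglec F-low sort the lower level of Fkbp5 and Fkbp4 in old mice was seen again, in libraries none of which is poor. With 24 libraries 1 member was called, Fkbp5, where 0.423% of genes were called lower. With 22 it was 5, all lower (Fkbp5, Fkbp4, Chordc1, Hsph1 and Hspa8), where 3.41% were. The list's median log2 fold change was -0.19 against -0.00 over all genes, and 34 of the 39 values were negative (22 libraries). Both sorts may come from the same animals, so the 2 comparisons after asbestos need not be independent.

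Fkbp5 was 100.4, 236, 110.2 and 195 CPM in young and 70.4, 68.5, 73.0 and 66.3 in old Siglec F-low libraries. Its log2 fold change was -1.21 ± 0.28, adjusted p = 0.0267 with 24 and -1.20 ± 0.25, adjusted p = 0.00376 with 22 libraries. All old libraries were below all young ones, and young replicates 2 and 4 were again the highest. With 24 libraries the call was lost without either of these (adjusted p = 0.15 and 0.105) or any 1 of the 4 old libraries (0.0642 to 0.0961), while in the fit of 22 it held whichever was left out. Fkbp4 was 118, 123, 115 and 111 CPM in young and 85.6, 91.2, 88.8 and 85.5 in old libraries, a smaller but tighter difference (-0.41 ± 0.18, adjusted p = 0.522 and -0.40 ± 0.07, adjusted p = 0.000474). Chordc1 was 48.5, 48.7, 48.9 and 45.6 and 33.5, 35.9, 37.6 and 33.3 CPM (-0.45 ± 0.18, adjusted p = 0.422 and -0.44 ± 0.13, adjusted p = 0.041). Hsph1 was 67.3, 85.9, 88.7 and 73.0 and 44.0, 47.0, 55.2 and 55.3 CPM (-0.64 ± 0.30, adjusted p = 0.568 and -0.64 ± 0.19, adjusted p = 0.041). The groups did not overlap for any of these genes. Hspa8, the most abundant HSP70, was 984, 964, 1102 and 963 CPM in young and 775, 707, 812 and 825 in old libraries, also apart (-0.36 ± 0.17, adjusted p = 0.608 and -0.36 ± 0.11, adjusted p = 0.0438). Fkbp4 was called in all 22 fits that left out 1 library, Hsph1 in 15, Chordc1 in 14 and Hspa8 in 11.

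Old libraries of Fkbp4, Stip1 and Hsp90aa1 were all below the young ones in each of the 3 comparisons of age. The share of all genes for which this held was not counted, so these genes cannot be said to stand out. With 22 libraries Fkbp4 was called in all 3, at -0.48, -0.54 and -0.40, as was Hsph1, at -1.06, -0.87 and -0.64. Fkbp5 was 112, 126, 188 and 183 CPM in young naive and 141, 133, 115 and 119 in old naive libraries, which overlapped, and was not called there. In young Siglec F-high cells its difference between asbestos and naive was not called (0.58 ± 0.27, adjusted p = 0.244 and 0.74 ± 0.26, adjusted p = 0.106), and the old minus young difference of asbestos responses was -0.94 ± 0.39, adjusted p = 0.587 and -1.09 ± 0.37, adjusted p = 0.8. The pattern over young replicates was shared by Tsc22d3, a glucocorticoid-induced leucine zipper gene. It was 84.9, 184, 386 and 175 CPM in young and 101, 99.9, 87.4 and 83.6 in old asbestos Siglec F-high libraries, and 86.8, 189, 103 and 170.1 and 80.7, 69.3, 96.7 and 73.9 in the Siglec F-low sort. As for Fkbp5, replicates 2 and 4 were the highest of the young libraries of both sorts, once the poor library at 386 is set aside. Unlike for Fkbp5, young replicate 1 lay among the old libraries in both sorts. Tsc22d3 was called lower in old cells in the Siglec F-high sort with 24 libraries (-1.15 ± 0.31, adjusted p = 0.0345) and in the Siglec F-low sort with 22 (-0.77 ± 0.23, adjusted p = 0.0403). In naive lungs, where Fkbp5 overlapped, all old libraries of Tsc22d3 were below all young ones. Of the 6 glucocorticoid-response genes no other was called between ages after asbestos, and the part of glucocorticoids was not tested. Their sums were 1871 to 2146 CPM in young and 1889 to 2188 in old asbestos Siglec F-high libraries (22 libraries). In the Siglec F-low sort they were 2047 to 2458 in young and 1761 to 2125 in old libraries. In the same comparisons 9 and 6 of the 20 cell cycle genes were called lower in old cells with 24 libraries, and 14 and 17 with 22. Of the B cell markers Ighm alone was called higher in old cells in both, and of the 8 monocyte-derived macrophage markers Mmp12 was called higher and Apoe lower in the Siglec F-high sort with 24 libraries. In the Siglec F-low sort 0 of those 8 were called with 24 libraries and 5 were called higher with 22. Resident alveolar macrophage marker sums were 21799 to 25617 CPM in young and 33647 to 38399 in old asbestos Siglec F-high libraries, and 33975 to 45709 and 50070 to 64191 in Siglec F-low ones, with Chil3 called higher in old cells of both sorts with 22 libraries only. Their part was not tested.

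**Figure D4:**
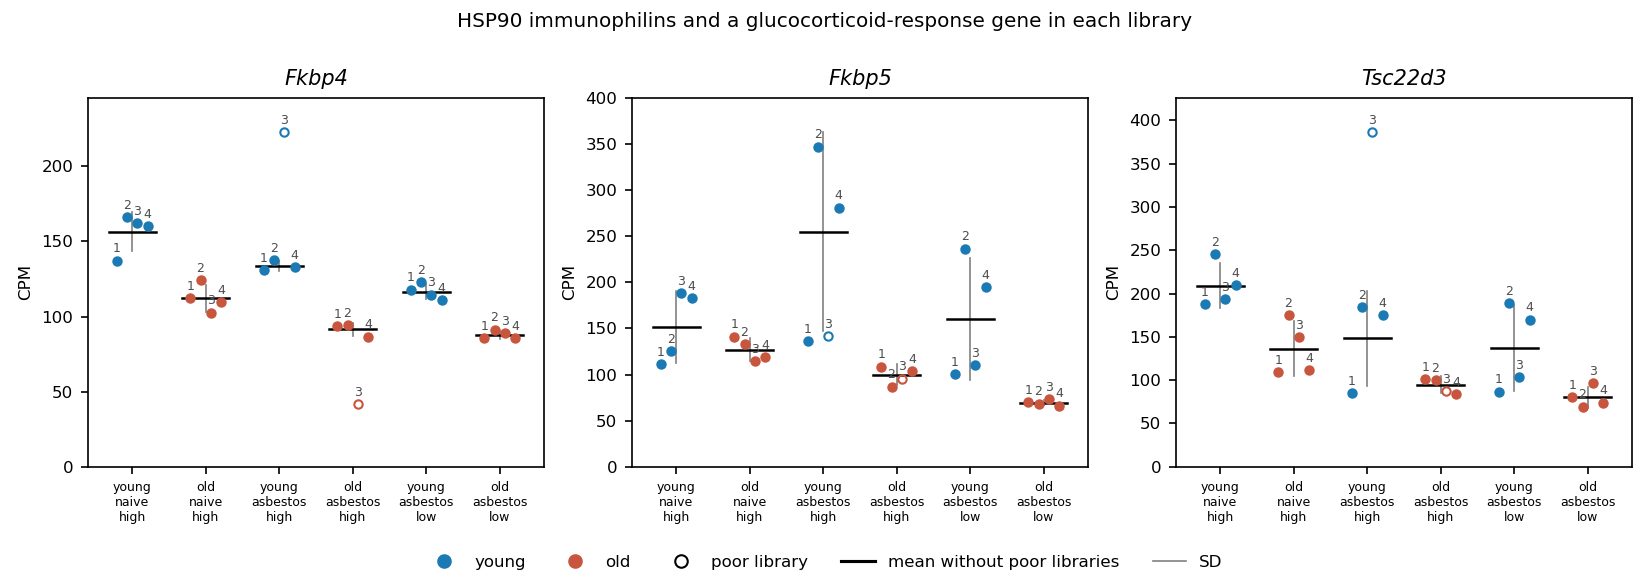
CPM of Fkbp4, Fkbp5 and Tsc22d3 in each library, by group, with the replicate number beside each point; open points are the poor libraries, bars are group means without them and thin lines the SD. For Fkbp5 after asbestos, young replicates 2 and 4 are at 347 and 281 CPM in the Siglec F-high and 236 and 195 in the Siglec F-low sort, above all old libraries.

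The Siglec F-low sort differed from the Siglec F-high sort in few members, and those called without a term for the replicate number were higher. In young asbestos lungs Bag3 was called with 24 libraries, where 3.41% of genes were called higher, and Bag3 and Hspa9 with 22, where 7.42% were. In old asbestos lungs Bag3 and Hspa9 were called with 24, where 2.64% of genes were called higher, and Stub1 as well with 22, where 6.3% were. These shares of 39 genes are near those of all genes, so the list as a whole does not stand out here.

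Bag3, which links HSP70 to autophagy, was 56.7, 45.3, 47.6 and 46.6 CPM in young Siglec F-high and 70.7, 65.1, 69.1 and 63.9 in young Siglec F-low libraries. The log2 fold change was 0.45 ± 0.11, adjusted p = 0.0204 and 0.44 ± 0.10, adjusted p = 0.0048. In old lungs Bag3 was 48.3, 45.2, 62.1 and 50.9 and 69.2, 68.5, 72.2 and 71.6 CPM, at 0.47 ± 0.12, adjusted p = 0.0221 and 0.54 ± 0.10, adjusted p = 0.000792. At both ages all Siglec F-low libraries were above all Siglec F-high ones. With 24 libraries the call was lost in young lungs without Siglec F-low replicate 1 (adjusted p = 0.0593) or 3 (0.0547). In old lungs it was lost without Siglec F-high replicate 1 or 2 or Siglec F-low replicate 3 or 4 (0.0583 to 0.069). Hspa9, the mitochondrial HSP70, was 225, 203, 243 and 201 and 264, 245, 233 and 241 CPM in young lungs, which overlapped only through the poor library (0.17 ± 0.11, adjusted p = 0.394 and 0.23 ± 0.06, adjusted p = 0.0222). In old lungs Hspa9 was 214, 221, 142 and 228 and 273, 246, 275 and 282 CPM, without overlap (0.41 ± 0.11, adjusted p = 0.0408 and 0.28 ± 0.06, adjusted p = 0.00576). It was called in 9 of the 24 fits that left out 1 library, with its largest adjusted p of 0.136 without Siglec F-low replicate 4. Stub1, a ubiquitin ligase that tags HSP70 and HSP90 clients, was 31.2, 33.2, 14.7 and 28.7 and 39.8, 40.2, 35.3 and 37.0 CPM in old lungs (0.44 ± 0.17, adjusted p = 0.177 and 0.29 ± 0.09, adjusted p = 0.0486). Its Siglec F-low libraries were above all Siglec F-high ones, but with 22 libraries its call held in only 6 of the 22 fits that left out 1 library, against 22 for Bag3 and Hspa9 in old and 19 for Hspa9 in young lungs.

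Same-numbered libraries of the 2 sorts deviated together with 22 libraries. The replicate block, a term for the replicate number, is shared by all 6 groups, although the numbers did not pair libraries in the other comparisons. With this block and 22 libraries, 4 members were called in young lungs in place of 2. The added ones were Hspe1, higher at 0.33 ± 0.10 (SE, adjusted p = 0.0261), and Fkbp4, lower at -0.19 ± 0.06 (adjusted p = 0.0397). The sort difference of a member was not shown to depend on age: the interaction called 0 members. Of all genes, 0 were called with 24 libraries and 0.0147% with 22. At an unadjusted p under 0.05 it gave 2 and 0 members, where it gave 650 of 13467 and 870 of 13629 genes. Of the 8 monocyte-derived macrophage markers, 6 in young and 7 in old lungs were called higher in the Siglec F-low sort with 24 libraries. Their sums were 3512 to 5811 CPM against 772 to 1100 in young and 4497 to 4924 against 1362 to 1513 in old lungs (22 libraries). The 6 neutrophil markers summed to 80.0 to 87.8 CPM against 49.8 to 57.4 in young and 74.0 to 97.0 against 59.3 to 75.6 in old lungs, and Ly6g was at 0 in all Siglec F-high and all young Siglec F-low libraries. The 8 resident alveolar macrophage markers were higher in sum in the Siglec F-low sort too, at 33975 to 45709 CPM against 21799 to 25617 in young and 50070 to 64191 against 33647 to 38399 in old lungs (22 libraries). Most of that sum was Chil3, which was called higher at both ages, while Siglecf was called lower. The part of these cells in the values of Bag3, Hspa9 and Stub1 was not tested.

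**Figure D5:**
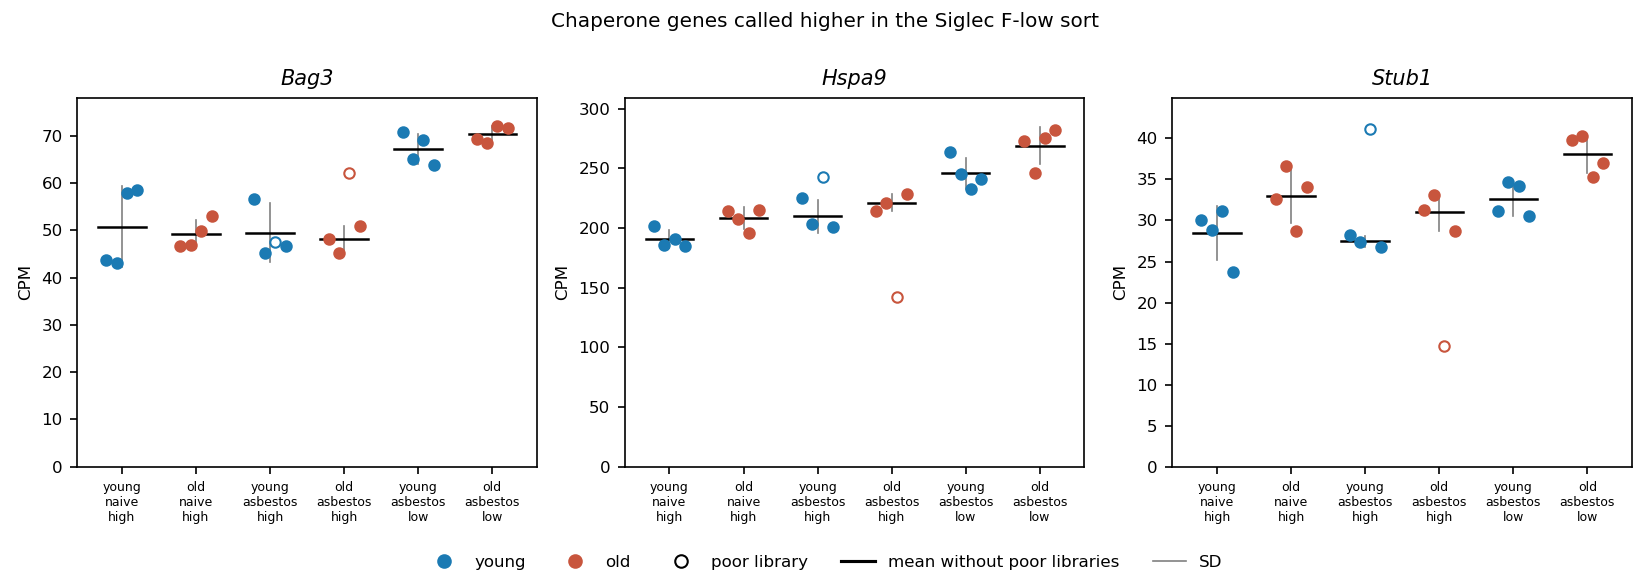
CPM of Bag3, Hspa9 and Stub1 in each library, by group; open points are the poor libraries, bars are group means without them and thin lines the SD. Bag3 lies between 63.9 and 72.2 CPM in the 8 Siglec F-low libraries and between 43.2 and 58.5 in the filled points of the Siglec F-high groups.

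In all, 11 members were called in at least 1 comparison of 2 groups with 24 libraries, 18 with 24 or 22, and 22 in none. The TRiC ring was the largest family without a call: none of its 8 subunits passed in any of the 7 comparisons with 24 or 22 libraries. All 8 nonetheless had negative values for old against young naive, between -0.18 and -0.03, with a median of -0.10 (24 libraries), and the ages overlapped for each. In asbestos Siglec F-high cells all 8 were negative with 22 libraries, with a median of -0.10, and old libraries were below all young ones for Cct3, Cct4, Cct5, Cct6a, Cct8 and Tcp1. With 24 libraries that held for Cct4, Cct5 and Cct8, and the median was -0.27. How many of all genes were separated in this way was not counted, so these subunits cannot be said to stand out. Cct4 was also below without overlap in old Siglec F-low cells (-0.29 ± 0.19, adjusted p = 0.922 with 24 and -0.28 ± 0.10, adjusted p = 0.0845 with 22). Only the replicate block with 22 libraries called it there (-0.27 ± 0.08, adjusted p = 0.0351), and same-numbered libraries of these groups did not deviate together. Over 22 libraries Cct2 ranged from 182 to 256 CPM, Cct8 from 153 to 223, Cct4 from 138 to 253, Cct5 from 136 to 218 and Cct7 from 117 to 164. Cct3 ranged from 112 to 157, Tcp1 from 114 to 166 and Cct6a from 74.5 to 104 CPM. The young poor library was at 549.7 CPM for Cct5 and 494 for Cct8 but at 31.4 for Cct6a, so subunits of 1 complex parted in that library.

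The mitochondrial chaperones other than Hspa9 were called in no comparison without the replicate block. Hspd1, the HSP60 barrel, ranged from 91.9 to 134 CPM, its lid Hspe1 from 33.0 to 57.9, and Trap1, the mitochondrial HSP90, from 76.3 to 92.7 (22 libraries). The heat shock factors were not called either. Hsf1, the main driver of the heat shock response, was 40.8, 40.9, 43.9 and 38.8 CPM in young and 40.8, 42.6, 40.8 and 45.7 in old naive libraries. Hsf2 overlapped between them as well. Hsf1 thus overlapped between ages, as did the inducible Hspa1a, Hsph1 and Dnaja1, while Hspa1b and Dnajb1 did not. Transcript levels say nothing of the activity of HSF1, which is set largely after translation.

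Among the remaining members, Hspa4 ranged from 207 to 243 CPM, Dnaja2 from 117 to 154, Dnajb6 from 18.9 to 25.7 and Bag1 from 86.3 to 142 (22 libraries). St13, which helps HSP70 hold its client, ranged from 142 to 194 CPM, the kinase adaptor Cdc37 from 159 to 203 and the HSP90 co-chaperone Ptges3 from 50.2 to 71.4. Cryab stayed between 0.146 and 1.88 CPM.

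Outside these 40 genes, 53 of 57 other chaperone genes, in lists of HSP40, HSP70 and HSP90 partners, prefoldin, mitochondrial proteases and heat shock factor partners, could be tested. For age in naive lungs 1 was called with 24 libraries, Dnaja4, and it was higher in old cells. With 22 libraries Dnaja4 and Dnajb14 were called higher and Dedd2 and Dnajc9 lower. After asbestos, Dnaja4 was called higher in old cells of both sorts with either number of libraries. Lower in old Siglec F-high cells were Bag4, Dnajc9 and Ppid with 24 libraries and Dnajc9 with 22, and in the Siglec F-low sort Dnajc9 and Ppid with 22. None of the 53 was called for asbestos or for the sort with 24 libraries. Among the calls with 22, Hspa13 was higher after asbestos in the young and Pfdn1 in the old. In the Siglec F-low sort Afg3l2, Hspa13 and Pfdn1 were called higher in young lungs, and Afg3l2, Clpb and Hspa13 higher and Bag5 and Tomm34 lower in old lungs. The median log2 fold change of the 53 for age in naive lungs was -0.02 with 24 libraries, against -0.13 for the 39 members and -0.01 for all genes.

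Dnaja4, an HSP40 gene related to Dnaja1, was 1.96, 1.21, 2.58 and 2.11 CPM in young naive and 5.36, 7.46, 7.46 and 7.99 in old naive libraries. Its log2 fold change was 1.84 ± 0.44, adjusted p = 0.0235 with 24 and 1.83 ± 0.24, adjusted p = 1.82e-05 with 22 libraries. In asbestos Siglec F-high cells it was 1.66, 2.14, 0 and 2.31 in young and 5.97, 6.97, 6.53 and 5.46 in old libraries (1.96 ± 0.46, adjusted p = 0.0167 and 1.60 ± 0.28, adjusted p = 0.000797). In Siglec F-low cells it was 1.01, 1.08, 1.83 and 1.37 and 4.87, 7.63, 4.69 and 3.34 CPM (1.94 ± 0.45, adjusted p = 0.0296 and 1.95 ± 0.26, adjusted p = 3.89e-05). All old libraries were above all young ones in each of the 3 comparisons, and levels were low throughout.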

How the data were processed

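The measurement was polyA RNA-seq of 24 libraries from macrophages sorted out of mouse lungs, with 6 groups of 4 taken from the sample labels. The deposited values are raw counts of reads per gene. Per the submitters' processing notes, the authors used bcl2fastq 2.19.1, Trimmomatic 0.36, STAR 2.6.0, HTSeq 0.11.2 and mm10. The annotation release, the strand setting and the treatment of reads with several matches are not given in the sources used here.

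The counts were tested with edgeR 4.0.16 (R 4.3.3): TMM scaling, a filter on low counts, 1 term per group over all libraries, the quasi-likelihood test and Benjamini-Hochberg adjustment. The adjustment covered all genes tested, 13467 with 24 and 13629 with 22 libraries. The filter was the filterByExpr rule of edgeR by group, with a minimum count of 10 and a total of 15. It does not ask for 10 counts in every library. The code was tested on simulated data. Gene positions and exon lengths came from GENCODE and upstream windows from RefSeq, both on GRCm38. The genes described were the members called in a comparison with 24 or 22 libraries. Members and lists were chosen with earlier results of these data known. Replicate numbers were taken to pair libraries where every same-numbered pair of a comparison deviated together (r over 0.1). That held for the sorts with 22 libraries (0.11 to 0.455 in young, 0.21 to 0.307 in old lungs) and for no comparison with 24. Alternatives were DESeq2 1.42.0, limma 3.58.1 (voom with quality weights), DESeq2-type scaling in edgeR, no filter, a replicate block, summed Hspa1a and Hspa1b counts and each library left out. Leaving out libraries within the 22, and young naive replicates 3 and 4 together, was added after the data were seen. The result of 1 gene outside the 40 is not reported here.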

Additional observations from a re-analysis of the deposited data

Results flagged for a closer look

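In groups of 4, a library was picked out where its gap to the nearest of the others exceeded Dixon's 95% critical value. Of 108 such tests, over 18 chaperone genes and 6 groups, 17 did so, where chance picks out about 1 in 20 groups, and 15 of the 17 were in the 2 poor libraries. In young asbestos Siglec F-high replicate 3, Hsph1 (18.4 CPM), Hspa8 (526) and Ahsa1 (57.7) were below the other young libraries. In the same library Dnaja1 (114), Hsp90aa1 (852), Hsp90ab1 (2602), Fkbp4 (223), Chordc1 (75.7) and Stub1 (41.1) were above them. In old asbestos Siglec F-high replicate 3, Dnajb1 (24.5 CPM), Hsp90ab1 (859), Stip1 (55.5), Fkbp4 (41.7) and Hspa9 (142) were below the other old libraries and Dnajb4 (15.5) was above. In young asbestos Siglec F-low libraries, Chordc1 was 45.6 CPM in replicate 4, below the others at 48.5 to 48.9, and Hspa8 was 1102 CPM in replicate 3, above the others at 963 to 984.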

How the results depend on the processing

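Numbers of chaperone genes called moved by more than 1.5 times in these cases. For old against young naive cells, 3 became 12 with 22 libraries, 5 with DESeq2, 14 with voom and 13 with the replicate block in 22 libraries. Between ages in asbestos Siglec F-high cells, 6 became 10 with DESeq2 and 3 with the replicate block. In Siglec F-low cells, 1 became 5 with 22 libraries, 7 with voom, 7 with the replicate block in 22 and 7 without young naive replicates 3 and 4. For asbestos in the young, 3 became 8, 13 with voom, 10 with the block in 22 and 1 without those replicates, and in the old 0 became 2, 2, 2 and 3, and 1 with DESeq2. Between sorts, 1 in young lungs became 2 with 22 libraries, 4 with voom, 4 with the block in 22, 2 without those replicates and 0 without the filter, and 2 in old lungs became 0 without the filter. Leaving out 1 of 24 libraries gave 1 to 8, 2 to 12, 0 to 1, 2 to 3, 0 to 1, 0 to 2 and 0 to 3 calls in that order, and 1 of the 22 gave 8 to 15 (9 without young naive replicate 3 or old naive replicate 1), 1 to 8, 2 to 8, 3 to 11, 0 to 3, 1 to 3 and 2 to 3. Both interactions gave 0 calls in every setting. The cause of these shifts was not tested.

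Among the genes called in a comparison, only the values of the HSP90 genes for asbestos in the young changed direction. Hsp90aa1 went from 0.86 to -0.47 with 22 libraries or without young asbestos Siglec F-high replicate 3, -0.43 with voom, -0.49 with the replicate block in 22, -0.44 without young naive replicates 3 and 4, and -0.58 to -0.38 without 1 of the 22 (-0.51 without young asbestos Siglec F-high replicate 1 or 2, -0.40 without replicate 4). Leaving out 1 of 24 gave -0.47 to 1.14. Hsp90ab1 went from -0.02 to 0.00014 with DESeq2-type scaling and lay between -0.30 and 0.0702 without single libraries, as low as 0.0028 among the positive ones. DESeq2 moved the median of all genes in the asbestos-by-age interaction from 0.03 to 0.13. Replicate numbers did not pair the libraries of other comparisons. Over these tests the SE was 0.26 at the median with 24 libraries and 0.15 with 22, which limits small differences, and counts of Hspb1 and Cryab limit those genes.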
